A study of Mus musculus with 2 samples.

Results

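Chromatin remodelling complexes were described in nuclei of newly divided cells from the adult mouse dentate gyrus. The members were all genes of the deposited table whose symbols begin with Smarc, Arid and a digit, Chd and a digit, Ino80, Bcl7, Brd and a digit, Actl6, or Dpf and a digit, together with Pbrm1. This gave 57 of 24319 named genes. Of the 57, 42 encode subunits of ATP-dependent remodellers. A further 12 are other ARID or bromodomain genes, and 3 are noncoding entries.

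Wild-type and mutant mice were compared, each genotype with 1 library, and the mutant genotype is labelled Kmt2d +/mut, called mutant below. All mice were 8 weeks old. The series' design text writes the mutant genotype as Kmt2d+/Bgeo, and its labels give no further account of the allele. All mice received 150 mg/kg of EdU, a thymidine analogue taken up during S phase, and the dentate gyrus was dissected 16 h later. For each genotype 500 EdU-positive nuclei were pooled from 3 mice, so the spread between animals was not measured and no difference below has a replicate check.

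Remodellers use ATP to slide, evict or restructure nucleosomes. The SWI/SNF family opens chromatin at promoters and enhancers, CHD proteins read modified histone tails, and ISWI and INO80 enzymes space nucleosomes or exchange histone variants. KMT2D, the enzyme that the mutation affects, adds methyl groups to lysine 4 of histone H3 at enhancers. During neurogenesis SWI/SNF is known to swap several subunits for paralogues as progenitors become neurons, and mutations in SWI/SNF and CHD genes cause developmental disorders in people.

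The targeted gene Kmt2d, on the minus strand of chromosome 15 from 98831669 to 98871204 in mm10, had 34.7 FPKM in the wild-type library against 23.5 in the mutant library. FPKM is the number of sequenced fragments scaled to transcript length and library size. The spacing of low values put the depth near 219000 fragments in wild-type and 216000 in the mutant library, provided that FPKM was scaled by the total of each library. Marker lists of the cell types that such a pool can hold differed between the libraries as well. The 5 markers of division summed to 120.2 FPKM in wild-type against 245 in the mutant, with 4 and 3 of them above 0, and they did not move together. Mki67, at 0.913 against 23.1, and Ccnd2, at 97.2 against 219.9, had the higher level in the mutant, Ccnb1 was read in the mutant alone, and Top2a and Cdk1 were read in wild-type alone. Markers of stem cells and astrocytes (4 of 6 above 0 in each library) summed to 593 against 969.6 FPKM, and those of intermediate progenitors (4 and 5 of 6) to 309 against 419. The lists of later stages had the lower sum in the mutant, with 381 against 171 for immature granule neurons (3 and 4 of 5 above 0) and 1171 against 976 for mature ones (4 and 3 of 5). Neither list moved together. Of the immature markers Igfbpl1 and Stmn2 were lower in the mutant, while Dcx and Sox11 were higher. Of the mature markers Snap25 had 685 against 539 and Calb1 had 177.8 against a listed 0. C1ql2, at 160.7 and 193.4, and Ppp3ca, at 147.6 and 243.1, were higher in the mutant. The transcription factor Prox1 was the 1 mature marker listed at 0 in both. Oligodendrocyte lineage markers (5 and 6 of 7) summed to 1036 against 1480, microglial markers (2 of 5 in each) to 59.8 against 211, and all 4 endothelial markers were listed at 0. Among all these markers the authors' deposited table calls Dcx, Insm1 and Olig2 higher and Calb1 lower in the mutant, each listed at 0 in the library where it is lower. The part these cell types have in the values below was not tested, and in pooled nuclei fewer cells of a type and less RNA per cell cannot be told apart.

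As a group, remodelling genes were read more often than most genes but at modest levels. The wild-type library had 36 of the 57 members above 0 (63.2%, against 23.8% of all named genes), and the mutant library had 32 (56.1%, against 22.4%). The median level of the members read was 9.60 FPKM in wild-type, where it was 26.9 over all genes read, and 21.1 in the mutant, where it was 29.4. Listed at 0 in both libraries were 13 members. They were the SWI/SNF genes Smarcd1, Smarcd2, Actl6b, Bcl7c and Dpf3, the ISWI gene Smarca1 and the pseudogene Smarca5-ps, Ino80, Ino80b and Ino80e, and Chd1l, Arid3c and Arid4a.

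Of the other 44 members, 43 reached 1 FPKM in at least 1 library. Chd1, which binds methylated lysine 4 of histone H3, was the exception at 0.584 FPKM in wild-type against a listed 0. Of the 43, 24 were above 0 in both libraries, 11 were listed at 0 in the mutant (25.6%, against 31.9% of all genes) and 8 in wild-type (18.6%, against 27.8%). The share listed at 0 in 1 library was 44.2%, against 59.7% of the 7903 named genes over the same minimum. An exact 0 in such a table can be a failed estimate as well as an absence of fragments, so no fold is given for any of these members.

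**Figure D1:**
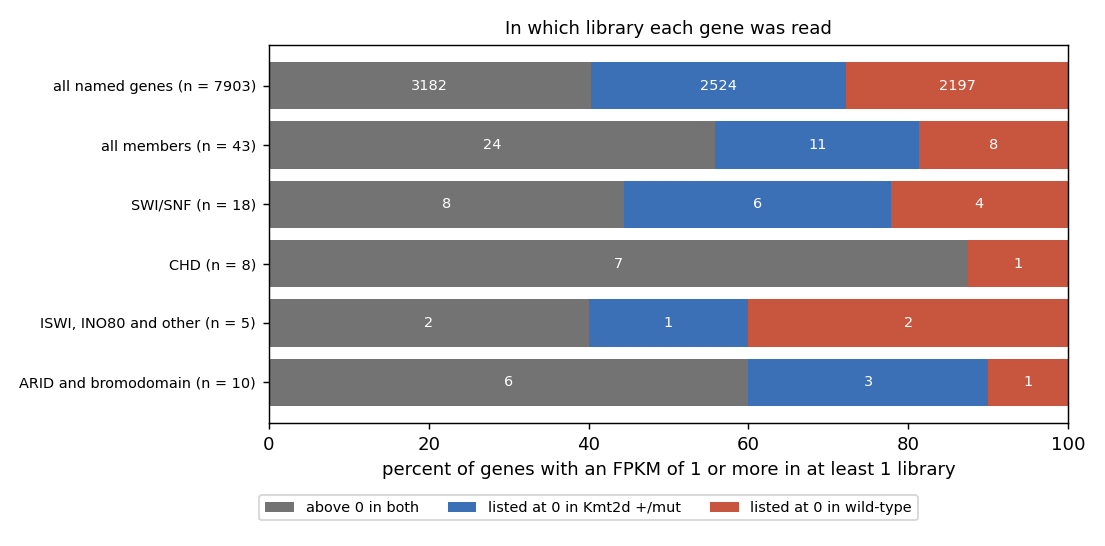
Percent of genes read in both libraries or in 1 library, among genes reaching 1 FPKM in at least 1 library, with the number of genes in each bar segment. CHD genes were above 0 in both libraries for 7 of 8 members, and SWI/SNF genes for 8 of 18.

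Differences are given as log2((Kmt2d +/mut FPKM + 1)/(wild-type FPKM + 1)), which understates differences of genes with low levels. On it a gene listed at 0 in 1 library is set by its level in the other and the pseudocount, and all 19 such members, 8 and 11, fall past 2-fold by this. Including them, 20 of the 43 members were higher by 2-fold or more in the mutant, where the share over all genes was 40.5%, and 14 were lower by 2-fold or more, where it was 44.3%. The members' shares were 46.5% and 32.6%, and the remaining 9 lay within 2-fold. Their median was 0.38, against -0.23 over all 7903 genes. Among the 24 members above 0 in both libraries, 12 were higher by 2-fold or more and 3 lower by 2-fold or more. Those shares were 50% and 12.5%, against 31.5% and 30.6% of the 3182 genes above 0 in both. The median of the 24 was 1.12 and that of the 3182 genes was 0.02. These 24 are long transcripts, with a median length of 5939 bp against 3582 bp for all genes above 0 in both, and the 13 members listed at 0 in both had a median of 3123 bp. On a longer transcript 1 fragment is worth fewer FPKM, and the part of length in these shares was not tested.

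**Figure D2:**
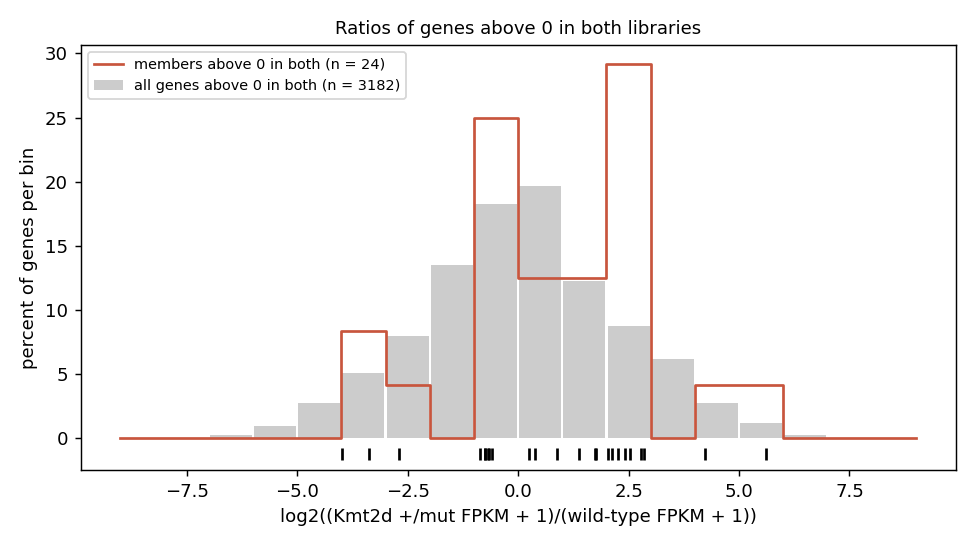
Distribution of log2((Kmt2d +/mut FPKM + 1)/(wild-type FPKM + 1)) in bins of width 1, as percent of the 3182 genes above 0 in both libraries (grey bars) and of the 24 members above 0 in both (red line), with each member as a black tick. Of the 24 members, 7 lie between 2 and 3, and none lies between -2 and -1.

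The authors' deposited table tested 11 members. It calls 4 of them lower in the mutant (36.4%, against 14.3% of all tested genes) and 0 higher (12.8% of all tested genes). The 4 are the SWI/SNF genes Smarcb1, Bcl7b and Dpf2 and the noncoding entry Chd3os, and each was listed at 0 in the mutant. In this table all 878 called genes were listed at 0 in 1 of the libraries, and none of the 1826 tested genes above 0 in both was called, with 2 of these at an unadjusted p-value under 0.05. A member above 0 in both libraries therefore had no call, whatever its ratio.

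The catalytic subunits of SWI/SNF stood in opposite order in the libraries. Smarca4, the ATPase that prevails in many dividing cells, stood at 55.6 FPKM in wild-type against 32.6 in the mutant. Its paralogue Smarca2 stood at 12.8 and 98.8. Smarca4 was thus the higher of the pair in wild-type, with 81.3% of their summed level, and the lower in the mutant, with 24.8%. Smarca2 was 7.70-fold higher in the mutant, with an exact binomial 95% interval of 4.57 to 13.9 from an estimated 16.0 and 122 fragments. For Smarca4 the level in the mutant was 0.587 of the wild-type level (0.389 to 0.855, from an estimated 75.0 and 43.5 fragments). These intervals cover counting error of fragments only, taken as independent. PCR copies were not told from separate molecules, so the intervals here and below can be too narrow even for counting error. The fragments of Smarca2 are uncertain because its annotated transcripts run from 1962 to 5921 bp and the estimate uses the longest. The authors' deposited table calls neither gene, with q-values of 0.611 for Smarca2 and 0.816 for Smarca4.

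Of the 7 core genes, 2 were listed at 0 in both libraries and 5 reached 1 FPKM in at least 1. Of these 5, 4 were listed at 0 in 1 library, a share of 80%, against 59.7% of all genes over the minimum. Smarcb1, which anchors the complex to the nucleosome, stood at 363 FPKM in wild-type, from an estimated 116 fragments, and was listed at 0 in the mutant. It was the highest protein-coding member in the wild-type library, at percentile 96.5 of the genes read there, and it is called lower in the authors' deposited table with a q-value of 0.00308. Smarcc1, a scaffold subunit, stood at 8.24 FPKM in wild-type against a listed 0 in the mutant. Its paralogue Smarcc2 was the reverse, at a listed 0 and 7.29. Smarce1, the subunit with an HMG domain, stood at 6.65 and a listed 0, from an estimated 3.94 fragments. Smarcd3 was the only one of 3 SMARCD paralogues read, at 5.93 FPKM in wild-type against 36.1 in the mutant, and it was the only one of the 7 core genes above 0 in both libraries. Its ratio of 6.08 had an interval of 1.35 to 55.9, from an estimated 1.98 and 11.9 fragments.

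The actin-related and BCL7 subunits, which sit beside the ATPase, ran in opposite directions. Actl6a, the form found in progenitors, was listed at 0 in wild-type and stood at 62.2 FPKM in the mutant, from an estimated 24.2 fragments. It has no call in the authors' deposited table, with a q-value of 0.245. The form found in neurons, Actl6b, was listed at 0 in both libraries. Bcl7b stood at 191 FPKM in wild-type, from an estimated 64.9 fragments, and was listed at 0 in the mutant, which the authors' deposited table calls lower with a q-value of 0.029. Bcl7a lay within 2-fold, at 28.8 and 17.7 FPKM, and its interval of 0.316 to 1.16 for the ratio includes 1. Bcl7a was the only BCL7 gene above 0 in the mutant, and Bcl7c was listed at 0 in both.

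Subunits that define the canonical complex, BAF, were Arid1a, Arid1b and the DPF genes. Arid1a, a large DNA-binding subunit, stood at 11.3 FPKM in wild-type against 40.7 in the mutant, a ratio of 3.60 (2.13 to 6.15, from an estimated 19.7 and 70.0 fragments). Arid1b, which takes the same place in the complex, stood at 6.08 and 2.88, with an interval of 0.163 to 1.23 for the ratio that includes 1. Arid1a was the higher of the pair in both libraries, with 65.0% of their summed level in wild-type and 93.4% in the mutant. Dpf2, a reader of histone tails, stood at 53.6 FPKM in wild-type against a listed 0 in the mutant, which the authors' deposited table calls lower with a q-value of 0.029. Dpf1, a paralogue used in neurons, was listed at 0 in wild-type and stood at 2.20 in the mutant, a value that rests on about 1 fragment.

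The variant called PBAF carries Arid2, Pbrm1 and Brd7 in place of the ARID1 and DPF subunits. Arid2 stood at 4.09 FPKM in wild-type against a listed 0 in the mutant. Pbrm1, which has several bromodomains, was listed at 0 in wild-type and stood at 13.3 in the mutant. Neither had an estimated fragment number above 20 in the library that read it, with 7.41 for Arid2 and 18.2 for Pbrm1. Brd7 lay within 2-fold, at 41.6 and 27.4 FPKM. Brd9, which marks the non-canonical variant, stood at 46.7 in wild-type against 158 in the mutant, a ratio of 3.39 (2.07 to 5.59). Brd7 and Brd9 were near each other in wild-type, where Brd9 held 52.8% of their sum, and apart in the mutant, where it held 85.2%. Brd9 has no call in the authors' deposited table, with a q-value of 0.641.

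**Figure D3:**
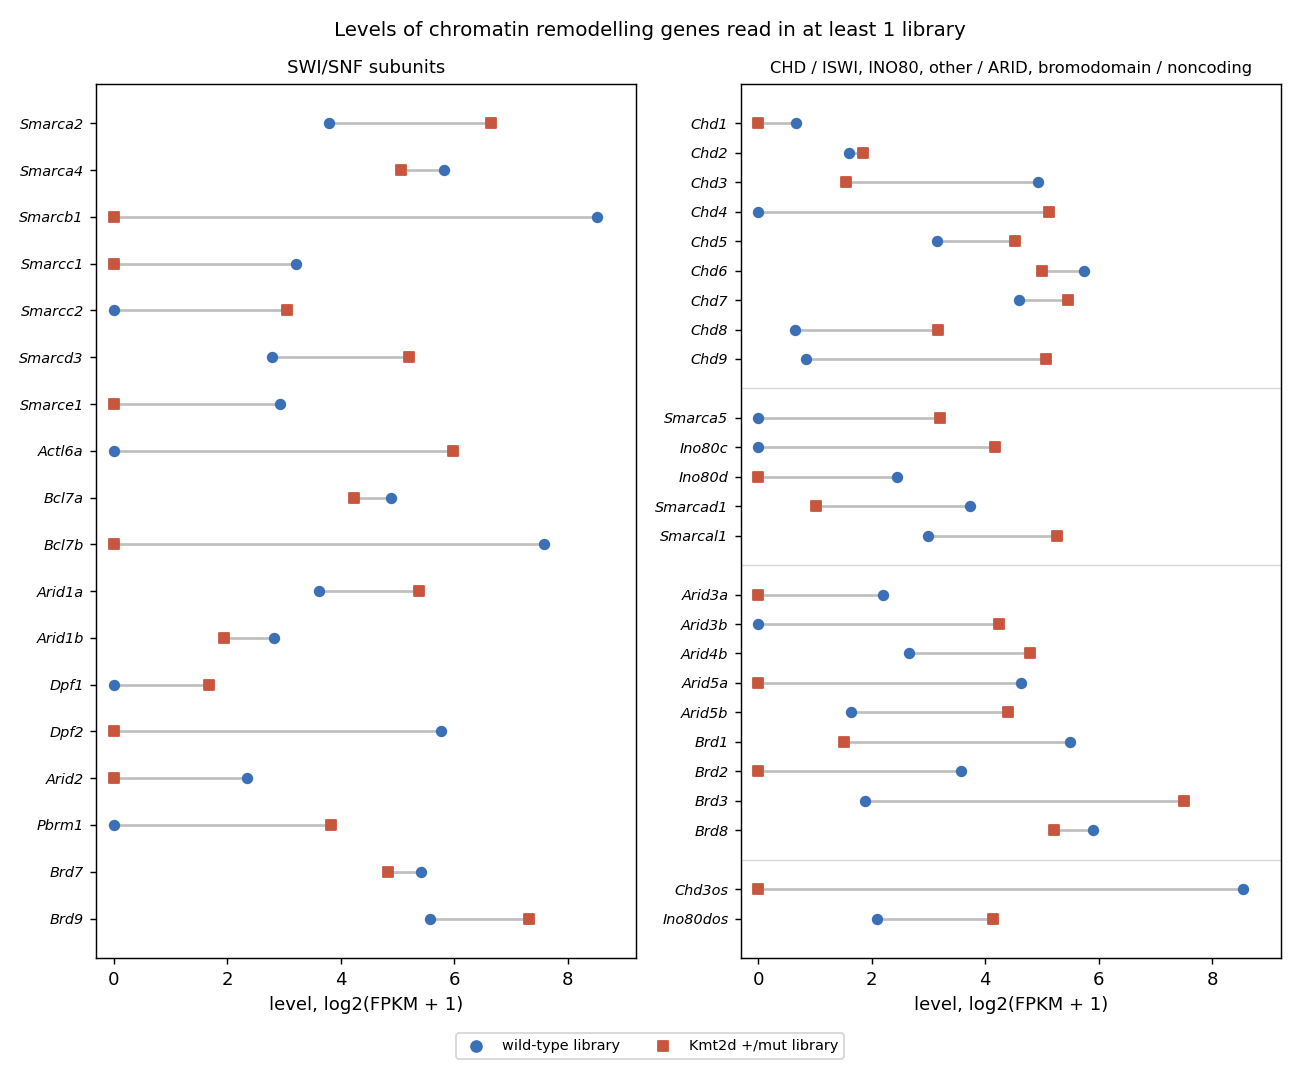
Level of the members read in at least 1 library, leaving out 1 member not reported here, as log2(FPKM + 1), in wild-type (blue circles) and mutant (red squares), with a grey line joining the libraries. Smarcb1, Bcl7b and Chd3os lie far to the right in wild-type and at 0 in the mutant, and Brd3 has the widest gap among members above 0 in both.

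Over the 23 SWI/SNF genes, 18 were over the minimum. Of these 18, 8 were higher by 2-fold or more in the mutant, 6 lower by 2-fold or more and 4 within 2-fold. Those shares were 44.4% higher and 33.3% lower, against 40.5% and 44.3% of all genes, and 10 of the 18 are listed at 0 in 1 library. Over the 8 above 0 in both libraries, 4 were higher by 2-fold or more (Smarca2, Smarcd3, Arid1a and Brd9). On the scale with the pseudocount 0 of the 8 were lower by 2-fold or more. Of all genes above 0 in both, 31.5% were higher and 30.6% lower. The median of the 8 SWI/SNF genes was 0.58, while the median over all 18 was -0.63, so the sign depends on the members listed at 0. The summed level of the 23 was 836 FPKM in wild-type against 499.6 in the mutant, counting each listed 0 as 0, a gap smaller than the wild-type level of Smarcb1 alone.

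The promoters of the 3 SWI/SNF genes that the authors' deposited table calls lower are shown because these genes share that call. Sequences are from RefSeq on GRCm38.p6, the build also known as mm10, and give the 250 bases before the most upstream listed start, from 5′ to 3′ on the strand of the gene, with CG dinucleotides in capitals. Smarcb1 lies at chr10:75921615-75921864 on the minus strand, Bcl7b at chr5:135168122-135168371 on the plus strand and Dpf2 at chr19:5912872-5913121 on the minus strand.
Smarcb1: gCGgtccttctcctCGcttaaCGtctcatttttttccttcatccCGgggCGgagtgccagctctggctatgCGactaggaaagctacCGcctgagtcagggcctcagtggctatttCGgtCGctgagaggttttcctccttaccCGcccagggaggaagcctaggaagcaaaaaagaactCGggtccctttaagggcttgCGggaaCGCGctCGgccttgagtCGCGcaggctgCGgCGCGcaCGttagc
Bcl7b: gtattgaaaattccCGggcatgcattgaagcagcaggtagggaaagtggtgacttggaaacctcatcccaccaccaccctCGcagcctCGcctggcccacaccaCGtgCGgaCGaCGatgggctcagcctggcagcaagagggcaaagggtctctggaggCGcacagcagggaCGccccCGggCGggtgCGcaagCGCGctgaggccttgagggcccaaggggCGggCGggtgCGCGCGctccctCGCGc
Dpf2: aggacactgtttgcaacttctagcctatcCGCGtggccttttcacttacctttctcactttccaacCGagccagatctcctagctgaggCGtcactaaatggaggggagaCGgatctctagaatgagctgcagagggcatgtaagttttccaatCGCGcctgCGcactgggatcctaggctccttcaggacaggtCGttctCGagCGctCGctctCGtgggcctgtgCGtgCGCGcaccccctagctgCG

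All 3 hold many CG dinucleotides, 21 for Smarcb1, 21 for Bcl7b and 17 for Dpf2. The median over the 42 members with a listed promoter, at any level, was also 21. Over all 17142 named genes with a listed promoter it was 10, and over those above the minimum it was 17. A window was called CpG-dense when more than 50% of its bases were G or C and CG, which reads the same on both strands, reached more than 0.6 of the number its base composition gives. By that measure 35 of the 42 members (83.3%) were CpG-dense, against 42.0% of the 17142 genes and 66.1% of the 6082 above the minimum. The 3 printed promoters lay at or under the median of the members.

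CHD genes were mostly read in both libraries. All 9 were above 0 in at least 1 library, and 7 were above 0 in both. Of the 8 over the minimum, 87.5% were above 0 in both, against 40.3% of all genes. Of these 8, 4 were higher by 2-fold or more in the mutant, 1 lower by 2-fold or more and 3 within 2-fold. Those shares were 50% higher and 12.5% lower, against 40.5% and 44.3% of all genes. Only Chd6 was tested in the authors' deposited table, with no call and a q-value of 0.753. Chd1 and Chd2, which bind methylated histone tails at active genes, were low in both libraries, with Chd2 at 2.03 FPKM in wild-type against 2.58 in the mutant, from an estimated 3.95 and 4.94 fragments. The wild-type value of Chd1 was worth an estimated 0.985 fragments.

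Chd3, Chd4 and Chd5 are alternative ATPases of the NuRD complex, which joins remodelling to histone deacetylation. Chd3 stood at 29.3 FPKM in wild-type against 1.94 in the mutant, 15.1-fold higher in wild-type, from an estimated 45.2 and 2.95 fragments. Chd4 was listed at 0 in wild-type and stood at 33.8 in the mutant, from an estimated 47.4 fragments. Chd5, a form known from neurons, stood at 7.86 and 21.9, a ratio of 2.79 (1.54 to 5.28). Among those above 0, Chd3 was thus the highest in wild-type and the lowest in the mutant.

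Chd6 to Chd9 form the remaining subfamily and were all above 0 in both libraries. Chd7, which is needed for adult neurogenesis in mice and is mutated in CHARGE syndrome, stood at 23.1 FPKM in wild-type against 43.2 in the mutant, a ratio of 1.87 (1.30 to 2.65, from an estimated 50.6 and 93.4 fragments). Chd6 went the other way, at 52.3 and 30.9, a ratio of 0.59 (0.433 to 0.803, from an estimated 118 and 68.7 fragments). Both lay within 2-fold and rest on more fragments in their lower library than any other CHD gene. Chd8, a gene linked to autism, stood at 0.564 and 8.01 FPKM, from an estimated 0.985 and 13.8 fragments. Chd9 stood at 0.797 and 32.7, from an estimated 2.06 and 83.4 fragments with its longest transcript. The ratio of Chd9 was 41.0, and with so few fragments in wild-type its interval ran from 11.3 to 353. Chd6 and Chd7 together held 98.2% of the summed level of the 4 genes in wild-type and 64.5% in the mutant.

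**Figure D4:**
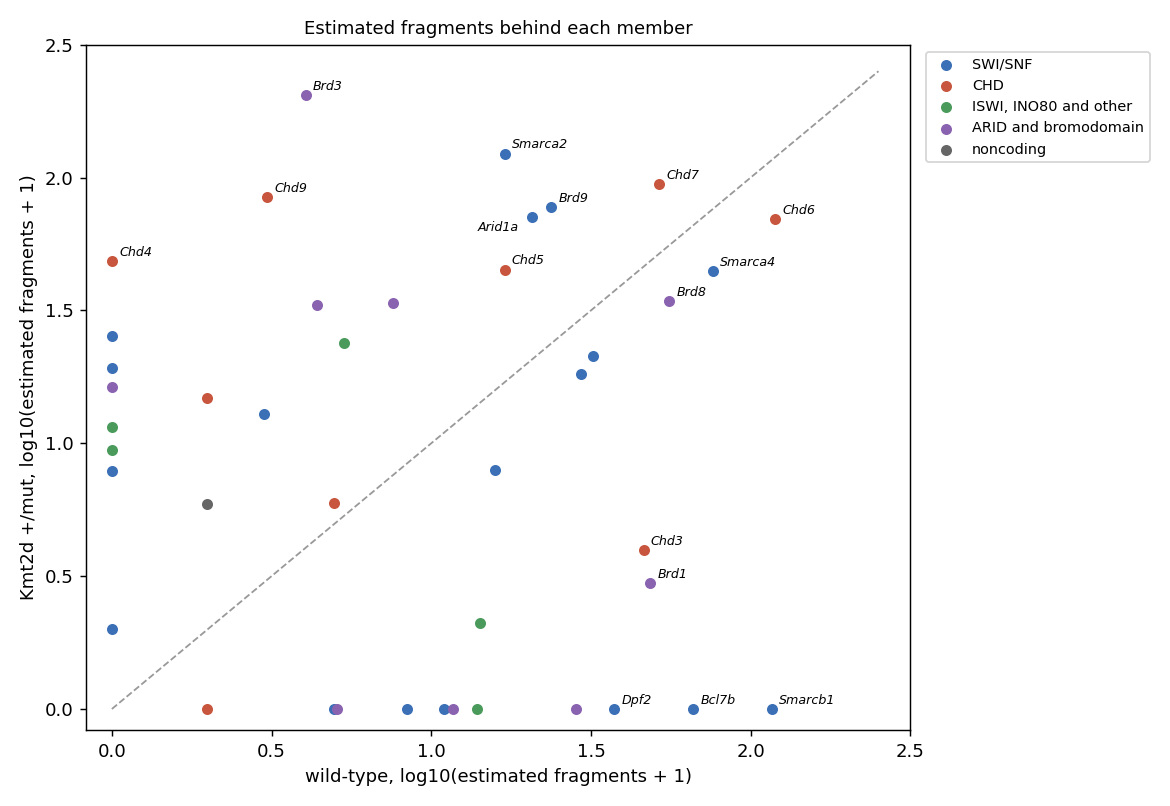
Estimated fragments behind members read in at least 1 library and with an annotated length, leaving out 1 member not reported here, as log10(fragments + 1) in wild-type (horizontal) and mutant (vertical), using the longest RefSeq-linked transcript, with equal numbers on the dashed line. Chd6, Chd7, Smarca4 and Brd8 lie far from both axes, while Smarcb1, Bcl7b, Dpf2 and Chd4 lie on an axis at 0.

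Few fragments stood behind many of these values, and the estimates are approximate. Of 26 low values of members with a single annotated length, 12 came out within 0.1 of a whole fragment number. In 12 of the 24 members above 0 in both libraries the lower library rested on an estimated 5 fragments or fewer, and in 10 on an estimated 10 or more. Those with few include the members with the highest ratios in either direction, Brd3, Chd9, Brd1, Chd3, Chd8 and Smarcad1. Of the 19 members listed at 0 in 1 library with an annotated length, 8 rested on an estimated 10 fragments or fewer in the other library.

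Of the 10 ISWI, INO80 and other SNF2 genes, 5 were listed at 0 in both libraries. That share was 50%, against 22.8% of all 57 members and 66.9% of all named genes. Smarca5, the main ISWI ATPase of dividing cells, was listed at 0 in wild-type and stood at 8.24 FPKM in the mutant, from an estimated 10.5 fragments. Its paralogue Smarca1 was listed at 0 in both, as was Ino80, the ATPase of the INO80 complex. Of the INO80 accessory subunits, Ino80c was listed at 0 in wild-type and stood at 17.0 in the mutant, and Ino80d was the reverse at 4.43 and a listed 0. Of the 5 INO80 subunits that the symbols cover, 2 were over the minimum, and 0 of these 2 were read in both libraries. Over all genes above the minimum that share was 40.3%, and 2 genes are too few to compare with it.

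Smarcad1 and Smarcal1 act at replication forks and were each above 0 in both libraries. Smarcad1, which helps restore silent chromatin behind the fork, stood at 12.2 FPKM in wild-type against 1.03 in the mutant, from an estimated 13.2 and 1.11 fragments. Smarcal1, which remodels stalled forks, stood at 6.92 and 37.2, from an estimated 4.32 and 22.9 fragments, a ratio of 5.37 (1.99 to 23.1). The ratios of these functional neighbours thus pointed in opposite directions.

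Among the other bromodomain genes, Brd3 had the highest ratio of any member above 0 in both libraries. This BET protein, which binds acetylated histones, stood at 2.68 FPKM in wild-type against 179.9 in the mutant, from an estimated 3.05 and 203 fragments, a ratio of 67.3 (23.1 to 335). It was the highest member in the mutant library, yet has no call in the authors' deposited table, with a q-value of 0.574. Its relative Brd2 did not follow it: the wild-type library held it at 10.97 FPKM, while the mutant library lists it at 0. Brd1, a scaffold of histone acetyltransferase complexes, went the other way at 43.9 and 1.85 FPKM, 23.7-fold higher in wild-type, from an estimated 47.4 and 1.98 fragments. Brd8, a subunit of the TIP60 acetyltransferase complex that also holds the remodeller Ep400, lay within 2-fold at 58.6 and 36.1 FPKM.

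The ARID genes outside SWI/SNF are mostly transcription factors and corepressor subunits. Arid4b, part of the SIN3 deacetylase complex, stood at 5.34 FPKM in wild-type against 26.7 in the mutant, a ratio of 4.999. Arid5b stood at 2.10 and 20.2, a ratio of 9.63 from an estimated 3.39 and 32.2 fragments. Both were higher in the mutant. The other 3 read in either library were each listed at 0 in 1 of them. They make up 60% of the 5 ARID genes over the minimum, close to the 59.7% of all genes over it. In wild-type Arid5a had 23.7 FPKM and Arid3a had 3.60, and in the mutant Arid3b had 17.8.

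Of the 3 noncoding entries, Chd3os and Ino80dos lie beside remodeller genes, and the pseudogene Smarca5-ps was listed at 0 in both libraries. Chd3os stood at 372 FPKM in wild-type, the highest of all members there, and was listed at 0 in the mutant, which the authors' deposited table calls lower with a q-value of 0.00308. RefSeq lists Chd3os as an older name of Rnf227, annotated as a long noncoding RNA on chromosome 11 from 69340796 to 69342641. Chd3 begins 631 bp further on, at 69343273, and ends at 69369406 on the minus strand, so that this entry lies past the 3′ end of Chd3 without overlapping it. Chd3 and Chd3os were both lower in the mutant. Ino80dos and Ino80d overlap by 197 bp on chromosome 1, and there the directions differed. Ino80dos stood at 3.28 FPKM in wild-type against 16.6 in the mutant, from an estimated 0.982 and 4.92 fragments. Libraries of this kind do not mark strand as far as the labels say, so reads in the overlap cannot be assigned to either gene.

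Partner subunits that the symbols do not cover were read in both directions. Such genes were listed by 50 symbols for SWI/SNF, ISWI, NuRD, INO80 and related complexes, and 48 of the symbols were in the table. Of these 48, 15 were listed at 0 in both libraries and 32 reached 1 FPKM in at least 1. Of these 32, 13 were higher by 2-fold or more in the mutant, 11 lower by 2-fold or more and 8 within 2-fold, with a median of 0.43. Those shares were 40.6% higher and 34.4% lower, against 40.5% and 44.3% of all genes, and 17 of the 32 are listed at 0 in 1 library. Among the 15 above 0 in both, 3 were higher by 2-fold or more and 4 lower by 2-fold or more. Of all genes above 0 in both, 31.5% were higher and 30.6% lower. The 4 with the highest mean level were Cdk2ap1, Actb, Mbd3 and Chrac1. Cdk2ap1, a NuRD subunit, stood at 198 FPKM in wild-type against 232 in the mutant. Actb, the actin that SWI/SNF carries, stood at 113 and 176. Mbd3, which holds NuRD together, stood at 90.7 and 180.4. These 3 lay within 2-fold, while Chrac1, a small histone-fold partner of ISWI, was listed at 0 in wild-type and stood at 212 in the mutant. The authors' deposited table tested 9 of the partners and calls 0 of them, with a q-value of 0.075 for Chrac1. Of all tested genes it calls 12.8% higher and 14.3% lower. The tested partners include Cdk2ap1, Actb and Mbd3, which were above 0 in both libraries, where no gene has a call.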

How the data were processed

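RNA from EdU-positive nuclei was measured in 2 pooled libraries, 1 per genotype. Per the labels' protocols, a modified Smart-seq2 method was used with 22 PCR cycles on cDNA and 20 after tagmentation, and no molecular identifiers are mentioned. The submitters' processing notes name HISAT2, Cuffnorm, Cuffdiff and the build mm10. Which versions, annotation or settings were used is not given in the sources used here. Gene-level FPKM came from a table of 15 library pairs that the authors deposited. From it the q-value, and for a count the p-value, of the test made by the authors were also taken as deposited. The pair named KS1 mutant and wild-type EdU was matched to the samples by name. The other 4 libraries were not used.

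Of 24346 entries, 27 with a date in place of a symbol were left out. With 1 library per genotype no test was made here. A pseudocount of 1, a minimum of 1 FPKM in at least 1 library and a threshold of 2-fold were used. Depth was estimated from genes with 1 annotated transcript over 800 bp (GENCODE, same build), by searching for the FPKM step at which low values become whole fragments, with 205 bp taken off each length. Then 81.7% of 82 low values in wild-type and 78.8% of 66 in the mutant library lay within 0.1 of a whole number, but these values also chose the step. Among low values of the members themselves it was 12 of 26. Estimated fragments are FPKM times shortened length over that step, available for 56 of 57 members, and intervals of ratios are exact binomial (Clopper-Pearson, 95%, on fragments rounded to whole numbers). Promoters were listed for 42 members. Analysis used Python 3.11.15, pandas 2.3.3 and scipy 1.17.1.

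Every member entered the counts, and the values of 1 member are not reported here. Partner subunits were named if among the 4 with the highest mean or called in the authors' deposited table. The members, lists and alternatives were chosen with earlier results of these data known, and 1 alternative was added after seeing the values. Members that share sequence with paralogues or pseudogenes are uncertain, since how reads fitting several places were counted is not given in the sources used here.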

Additional observations from a re-analysis of the deposited data

How the results depend on the processing

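Of the 43 members over the minimum, 20 were higher by 2-fold or more in the mutant library and 14 lower, with a median of 0.38. With only members above 0 in both libraries the counts were 12 and 3. With only the 11 members the authors tested they were 4 and 4, and the median turned to -0.74, where 4 of the 11 are listed at 0 in the mutant library and 1 in the other. With only subunits of ATP-dependent remodellers, 9 were lower. With only members at an estimated 10 fragments or more in at least 1 library, an alternative chosen after seeing the data, 9 were lower. These smaller counts cover fewer members, and shares moved as well. With only members above 0 in both, 50% were higher and 12.5% lower, against 46.5% and 32.6% of the 43. Left out there are 11 members listed at 0 in the mutant library and 8 listed at 0 in wild-type. Other pseudocounts (0.1 or 5), no minimum, a minimum of 5 FPKM and rescaling each library to its sum kept both counts within 1.5 times. The medians then ran from 0.22 to 1.12, and the median was 0 without a minimum. The sign of a member's ratio cannot change with the pseudocount. Without the pseudocount, rescaling shifts each log2 ratio of a gene above 0 in both by about 0.18. That is less than the member ratio nearest 0, which was 0.24 with the pseudocount (Chd2). With the pseudocount the shifts differed between members. Chd8 moved from 2.53 to 3.24, and Smarcad1 from -2.70 to -2.97. That the signs were kept is therefore no check of them. The rescaling moved the median of all genes above 0 in both from 0.02 to 0.19. No paired analysis was possible because each genotype has 1 library, and for the same reason no library could be left out. Depth of about 219000 and 216000 fragments limits all members with low levels.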
